A study of Mus musculus with 23 samples.

Results

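Of the 22784 gene symbols in the deposited table, 87 are cytosolic ribosomal protein genes. They were taken by symbol: every symbol that begins with Rpl or Rps and a digit, together with Rplp0, Rplp1, Rplp2 and Rpsa, leaving out the S6 kinases and pseudogene symbols. They are 52 large-subunit (Rpl) symbols, 34 small-subunit (Rps) symbols and Rps19bp1, which the naming rule takes although its protein binds Rps19 and is not a ribosomal protein. Among them 8 are paralogs of another ribosomal protein gene (Rpl3l, Rpl7l1, Rpl10l, Rpl22l1, Rpl36al, Rpl39l, Rps4l and Rps27l), and 4 lie on the X chromosome (Rpl10, Rpl36a, Rpl39 and Rps4x). The rule itself uses no measured value, but the members were chosen with earlier results of these data known.

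Ribosomal proteins join the ribosomal RNAs to form the small subunit, which reads the mRNA, and the large subunit, which makes the peptide bonds. Their mRNAs are abundant in dividing cells, and many begin with a C and a run of pyrimidines (the TOP motif), through which mTOR signalling and Larp1 act on their translation and stability. The growing oocyte stores ribosomes and mRNA for the early embryo, and its transcription stops before meiotic maturation. Mammalian genomes also hold many processed pseudogenes of these genes, which are near-copies of the spliced mRNA.

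Poly(A) RNA was sequenced from 23 samples, 14 from a culture route to mouse oocytes and 9 from animals. The culture groups had the strain label C57BL/6 X 129. They were female embryonic stem (ES) cells kept in 2i and LIF (3 samples), primordial germ cell-like cells (PGCLCs) purified at day 6 of induction (2 samples), and PGCLCs after 3 days in aggregates with gonadal somatic cells of female embryos at embryonic day E12.5 (3 samples). The later culture groups were oocytes of secondary follicles from such aggregates at 21 days, which had received the estrogen receptor antagonist ICI182780 for part of that time, and metaphase II (MII) oocytes. The cultured MII oocytes came from 11 days of follicle culture with FSH, with BMP15 and GDF9 at its beginning, and 16 hours of maturation with FSH, EGF and hCG (3 samples each). The animal groups had the strain label B6D2F1. They were primordial germ cells (PGCs) at E12.5 and secondary follicle oocytes of 8-day-old females, both sorted by the BVSC reporter transgenes, and MII oocytes of 8-week-old females (3 samples each). Strain and route cannot be told apart in any comparison of culture with animal.

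The authors deposited 1 value per gene and group, as FPKM, fragments scaled to gene length and library size, so no spread between samples, error or test can be given for any difference, and read depth is unknown. Libraries were made from 10000 to 13200 ES cells, 10000 day 6 PGCLCs, 5300 to 15000 reaggregated PGCLCs, 337 to 812 secondary follicle oocytes and 99 to 134 MII oocytes. Comparisons used genes that reached 1 FPKM in any group, 14242 in all, 84 of the 87 members among them. The other members were Rps27rt, listed at 0 in all 8 groups, Rpl26 and Rps29. A gene was called higher or lower when log2(FPKM + 1) differed by at least 1, that is 2-fold, a scale that understates the change of low genes. In bulk samples, fewer cells of a type and less RNA per cell cannot be told apart. Oocyte markers were at 1 FPKM or more for 10 of 10 genes in all 4 oocyte groups, and for 1 to 3 in the 4 earlier groups. Pluripotency and early germ cell markers were at 1 FPKM or more for 10 of 10 genes in the 4 earlier groups. In the oocyte groups 6 or 7 of these 10 genes also reached 1 FPKM.

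Ribosomal protein mRNA took a large and nearly equal share of the FPKM in ES cells and germ cell precursors, a much smaller one in secondary follicle oocytes and the smallest at MII, by both routes. Along the culture route the members held 7.95% of the summed FPKM in ES cells, 8.78% in day 6 PGCLCs, 8.37% in reaggregated PGCLCs, 0.929% in secondary follicle oocytes and 0.234% in MII oocytes. Along the animal route they held 7.85% in E12.5 PGCs, 0.982% in secondary follicle oocytes and 0.122% in MII oocytes. The order of stages was thus the same by both routes, and the widest gap in percentage points lay between the last precursor stage and the secondary follicle. From secondary follicle to MII oocytes the members' sum went from 3247 to 1441 FPKM in culture and from 3436 to 1189 FPKM in animals. The sum of all genes went from 349451 to 616260 FPKM in culture and from 349772 to 975407 FPKM in animals. The smaller shares at MII thus rest in part on larger column sums.

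The median member had 40.7 FPKM in ES cells, 40.4 FPKM in day 6 PGCLCs, 34.7 FPKM in reaggregated PGCLCs, 9.34 FPKM in cultured secondary follicle oocytes and 1.73 FPKM in cultured MII oocytes. In animals it had 43.9 FPKM in E12.5 PGCs, 9.46 FPKM in secondary follicle oocytes and 0.538 FPKM in MII oocytes. Over all genes tested the median stayed between 6.01 and 6.50 FPKM in the 6 groups before MII, and was 3.77 FPKM in cultured and 2.64 FPKM in animal MII oocytes. The median member was therefore above the median gene in every group before MII and below it in both MII groups. Members listed at 0 numbered 2 to 5 in the groups before MII, 17 (19.5%) in cultured MII oocytes and 26 (29.9%) in animal MII oocytes, of which 16 were the same genes. Of all genes tested, 4.94% were listed at 0 in cultured and 9.02% in animal MII oocytes, against 2.16% to 4.35% before MII.

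**Figure D1:**
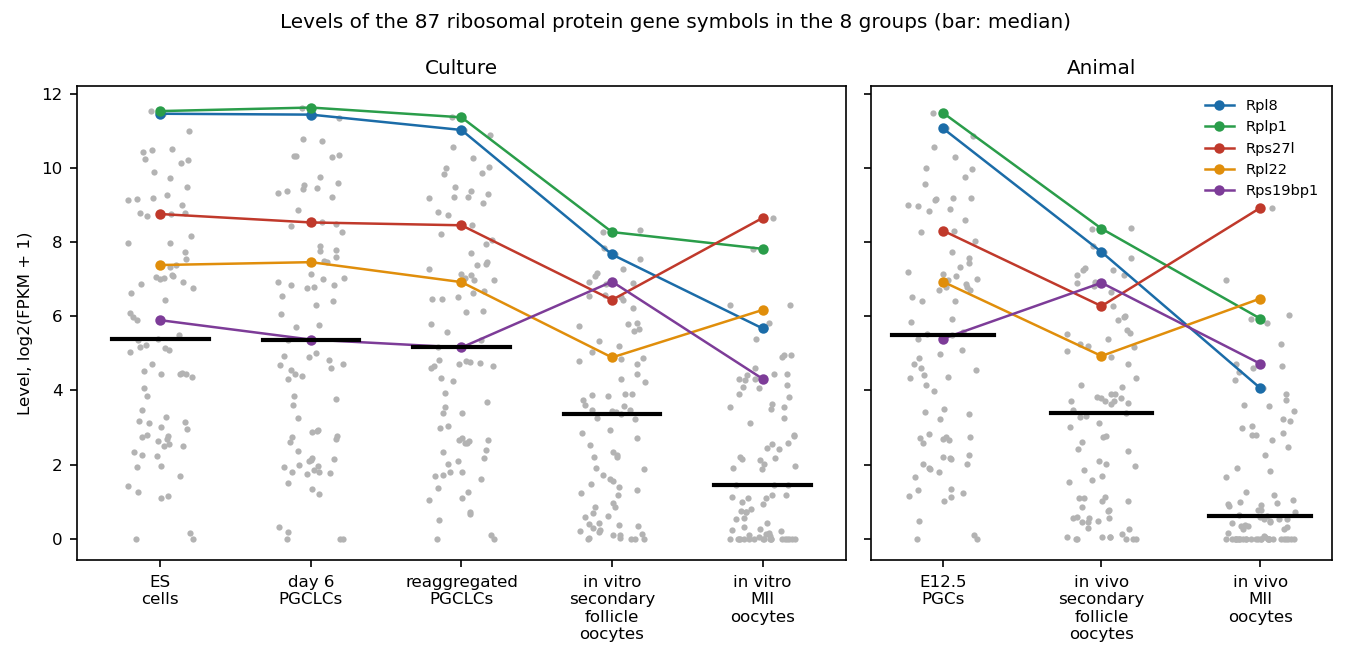
Levels of the 87 members as log2(FPKM + 1), 1 grey point per member and 1 deposited value per group, with the 5 culture groups on the left and the 3 animal groups on the right. Black bars are the medians, at 3.37 in cultured and 3.39 in animal secondary follicle oocytes and at 1.45 in cultured and 0.62 in animal MII oocytes, and the coloured lines show Rps27l and Rpl22 higher at MII and Rps19bp1 highest in the secondary follicle.

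Rplp1 and Rpl8 were among the members with the highest mean level. Rplp1, an acidic protein of the stalk that recruits translation factors, ranked first of all genes in the 4 precursor groups, with 2975 FPKM in ES cells, 3178 FPKM in day 6 PGCLCs, 2648 FPKM in reaggregated PGCLCs and 2890.0 FPKM in E12.5 PGCs. It had 308.6 FPKM in cultured and 329.2 FPKM in animal secondary follicle oocytes, and 225.2 FPKM in cultured and 60.4 FPKM in animal MII oocytes. Rplp1 was thus an abundant mRNA in the groups before MII, with its lowest value in animal MII oocytes. In each MII group only 1 member, Rps27l, was among the 500 highest genes.

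Rpl8, a large-subunit protein next to the peptidyl transferase centre, had 2831 FPKM in ES cells, 2784 FPKM in day 6 PGCLCs, 2089 FPKM in reaggregated PGCLCs, 202.5 FPKM in cultured secondary follicle oocytes and 50.1 FPKM in cultured MII oocytes. In animals it had 2161 FPKM in E12.5 PGCs, 212.5 FPKM in secondary follicle oocytes and 15.7 FPKM in MII oocytes. Both genes were thus far lower in growing oocytes than in precursors.

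The order of the members differed less between neighbouring stages than that of all genes. Over the 87 members, Spearman's rho of the levels was 0.953 between cultured secondary follicle oocytes and reaggregated PGCLCs, against 0.572 over all genes tested. It was 0.957 between animal secondary follicle oocytes and E12.5 PGCs, against 0.596 over all genes. Between MII and secondary follicle oocytes it was 0.914 in culture, against 0.757 over all genes, and 0.835 in animals, against 0.647 over all genes. These are descriptions across genes that share a column, its scaling and the authors' handling of reads with several matches.

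At the step into the growing oocyte nearly the whole family was lower. In culture, 73 of 84 members (86.9%) were called lower in secondary follicle oocytes than in reaggregated PGCLCs, where 26.4% of all genes tested were, and 1 member was called higher, where 25.2% of all genes were. Members had a median log2 ratio of -2.32, against -0.09 over all genes. By the median of the per-gene FPKM ratios, the 64 members with at least 1 FPKM in both groups were 6.67-fold lower in the oocytes. Small-subunit members had a median log2 ratio of -2.63 and large-subunit members one of -2.14.

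In animals, 78 of 84 members (92.9%) were called lower in secondary follicle oocytes than in E12.5 PGCs, where 25.9% of all genes were, and 1 was called higher, where 24.3% were. Their median log2 ratio was -2.24, against -0.09 over all genes. The 2 steps have no group in common, and 72 of 84 members (85.7%) were called lower in both, where 22.0% of all genes were. Another 6 members (7.14%) were called lower in animals alone, where 3.83% of all genes were, and 1 (1.19%) in culture alone, where 4.33% were. The log2 ratios of the 2 steps had a Spearman's rho of 0.959 over the 84 members and of 0.952 over all genes. For no member did they differ by 1 or more, where 2.91% of all genes were higher in culture by 1 or more and 2.36% lower, which is a description with no test.

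Among members with at least 10 FPKM in either group, those lowest in cultured secondary follicle oocytes relative to reaggregated PGCLCs were Rplp2, Rps3a1 and Rpl35a. Rplp2, the stalk partner of Rplp1, had 35.8 FPKM in the oocytes and 593 FPKM in reaggregated PGCLCs (log2 ratio -4.01). Rps3a1, a small-subunit protein, had 3.80 FPKM in the oocytes and 68.0 FPKM in reaggregated PGCLCs (log2 ratio -3.85). Rpl35a, a large-subunit protein, had 9.85 FPKM in the oocytes and 139 FPKM in reaggregated PGCLCs (log2 ratio -3.69).

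In animals the lowest were again Rps3a1, with 5.86 FPKM in secondary follicle oocytes and 125 FPKM in E12.5 PGCs (log2 ratio -4.20), and then Rpl18 and Rps3. Rpl18 had 35.6 FPKM in the oocytes and 457 FPKM in E12.5 PGCs (log2 ratio -3.64). Rps3, which lines the mRNA entry channel and also takes part in DNA repair, had 46.2 FPKM in the oocytes and 581 FPKM in E12.5 PGCs (log2 ratio -3.63). The members lowered most were thus both abundant (Rps3) and moderate (Rps3a1) in the precursors.

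Rps19bp1 was the one member called higher in the growing oocyte, by both routes. Its product, also known as AROS, binds Rps19 and the deacetylase Sirt1. It had 121.5 FPKM in cultured secondary follicle oocytes and 34.7 FPKM in reaggregated PGCLCs (log2 ratio 1.78), and 118.9 FPKM in animal secondary follicle oocytes and 41.0 FPKM in E12.5 PGCs (log2 ratio 1.51). At MII it was lower again, at 18.9 FPKM in culture and 25.4 FPKM in animals. No true ribosomal protein gene was called higher at this step.

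Next after it by log2 ratio came Rpl35, a large-subunit protein named after its values were seen, which stayed low and within 2-fold. It had 1.94 FPKM in cultured secondary follicle oocytes and 1.13 FPKM in reaggregated PGCLCs (log2 ratio 0.46), and 2.245 FPKM in animal secondary follicle oocytes and 1.005 FPKM in E12.5 PGCs (log2 ratio 0.69). The next with at least 10 FPKM in either group also stayed within 2-fold. Rpl39l, a paralog of the exit tunnel protein Rpl39, had 48.1 FPKM in cultured secondary follicle oocytes and 69.6 FPKM in reaggregated PGCLCs (log2 ratio -0.52), and 63.2 FPKM in animal secondary follicle oocytes and 115.2 FPKM in E12.5 PGCs (log2 ratio -0.86). Rpl36al had 10.0 FPKM in cultured secondary follicle oocytes and 19.2 FPKM in reaggregated PGCLCs (log2 ratio -0.87). Rpl30 had 5.74 FPKM in animal secondary follicle oocytes and 10.4 FPKM in E12.5 PGCs (log2 ratio -0.75). Of these, Rpl39l was the one at a level well above 10 FPKM in the oocytes of both routes.

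At the step to MII most of the family was lower again, with exceptions. Because poly(A) RNA was sequenced, mRNA amount and poly(A) tail length cannot be told apart in the values at MII, here and below. In culture, 48 of 84 members (57.1%) were called lower in MII than in secondary follicle oocytes, where 28.6% of all genes were, and 3 were called higher, where 23.9% were. In animals, 53 of 84 members (63.1%) were called lower in MII than in secondary follicle oocytes, where 33.1% of all genes were, and 5 were called higher, where 28.0% were. Members had a median log2 ratio of -1.29 in culture, against -0.08 over all genes, and of -1.79 in animals, against -0.09. The steps of the 2 routes have no group in common, and 46 of 84 members (54.8%) were called lower in both, where 26.1% of all genes were.

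Rpl7a was among the members with the lowest MII ratios by both routes. This gene of a large-subunit protein had 4.34 FPKM in cultured MII oocytes and 54.0 FPKM in cultured secondary follicle oocytes (log2 ratio -3.37), and 0.954 FPKM in animal MII oocytes and 58.4 FPKM in animal secondary follicle oocytes (log2 ratio -4.93). Also among the lowest ratios in animals was that of Rps15, a small-subunit protein, with 7.19 FPKM in MII and 237 FPKM in secondary follicle oocytes (log2 ratio -4.86). Also among the lowest ratios in culture was that of Rpl10l, a retrogene copy of X-linked Rpl10, with 0.164 FPKM in MII and 10.1 FPKM in secondary follicle oocytes (log2 ratio -3.26).

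Rps27l, Rpl22 and Rpl15 were called higher at MII by both routes. Rps27l, a paralog of Rps27 that p53 can induce, had 402 FPKM in cultured MII oocytes and 86.0 FPKM in cultured secondary follicle oocytes (log2 ratio 2.21), and 486 FPKM in animal MII oocytes and 76.5 FPKM in animal secondary follicle oocytes (log2 ratio 2.65). It was the top member in both MII groups, where it alone made up 27.9% of the members' summed FPKM in culture and 40.8% in animals, against 1.33% to 2.65% in the other 6 groups. Rps27l thus ran against the family at this step, after having been lower in secondary follicle oocytes than in their precursors like most members.

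Rpl22, an RNA-binding large-subunit protein, had 71.1 FPKM in cultured MII oocytes and 28.7 FPKM in cultured secondary follicle oocytes (log2 ratio 1.28), and 88.2 FPKM in animal MII oocytes and 29.5 FPKM in animal secondary follicle oocytes (log2 ratio 1.55). Rpl15, a large-subunit protein, had 29.0 FPKM in cultured MII oocytes and 13.9 FPKM in cultured secondary follicle oocytes (log2 ratio 1.01), and 36.8 FPKM in animal MII oocytes and 15.9 FPKM in animal secondary follicle oocytes (log2 ratio 1.16). Rpl13a, which also serves in a complex that silences translation, was called higher in animals alone, with 124.7 FPKM in MII and 45.0 FPKM in secondary follicle oocytes (log2 ratio 1.45), while in culture it had 78.4 FPKM in MII and 52.2 FPKM in secondary follicle oocytes (log2 ratio 0.58). Rps15a, named after its values were seen because it completes the 5 members called higher in animals, had 9.88 FPKM in animal MII oocytes and 2.92 FPKM in animal secondary follicle oocytes (log2 ratio 1.47).

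These increases rest in part on the scale of the columns. With all columns scaled to equal sums, Rps27l was the only member still called higher at MII by either route, with log2 ratios of 1.40 in culture and 1.18 in animals. Rpl22 then had log2 ratios of 0.48 in culture and 0.10 in animals, Rpl15 had 0.23 in culture, and Rpl13a had -0.01 in animals. The same scaling lowered the median of all genes tested to -0.50 in culture and -0.74 in animals, and the ratios just given are not relative to that shift.

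**Figure D2:**
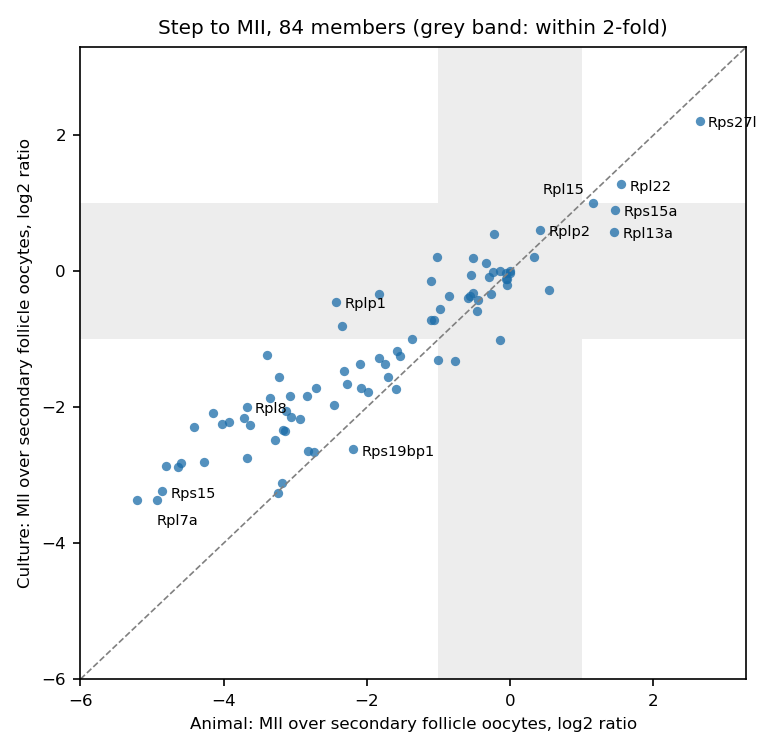
Log2 ratio of MII over secondary follicle oocytes for the 84 members tested, with the culture route on the vertical axis and the animal route on the horizontal axis, 1 point per member, a dashed line at equal ratios and grey bands for differences under 2-fold. Rps27l (2.21 in culture, 2.65 in animals), Rpl22 and Rpl15 stand in the upper right, and 64 of the 84 points have a higher ratio in culture than in animals.

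The start sites of members called higher at MII by either route, and of others not called higher, are shown to set the letters beside the values. Each line holds 30 bases of the RefSeq start region on GRCm38.p6, read in the direction of transcription, 15 before the annotated start and 15 from it on, with the longest run of C and T in capitals.
Rps27l (chr9:66946071-66946100, plus strand): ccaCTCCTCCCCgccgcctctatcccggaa
Rpl22 (chr4:152325711-152325740, plus strand): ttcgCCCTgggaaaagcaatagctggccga
Rpl15 (chr14:18270972-18271001, minus strand): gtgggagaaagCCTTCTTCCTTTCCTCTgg
Rpl13a (chr7:45128731-45128760, minus strand): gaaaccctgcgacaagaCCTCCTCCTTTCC
Rplp2 (chr7:141447636-141447665, plus strand): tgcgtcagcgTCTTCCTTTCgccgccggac
Rps27 (chr3:90213634-90213663, minus strand): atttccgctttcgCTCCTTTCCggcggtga
Rpl22l1 (chr3:28805493-28805522, plus strand): gtgcggcgcaagcccgTTCTCTTCCCacgg
Rpl39l (chr16:10170213-10170242, plus strand): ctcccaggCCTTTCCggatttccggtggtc
In these windows the longest pyrimidine run spans 17 bases in Rpl15, 13 in Rpl13a, 10 in Rplp2 and Rpl22l1, 9 in Rps27l and Rps27, 7 in Rpl39l and 4 in Rpl22. A run across the start was thus present in Rpl15, which was called higher at MII, and also in Rplp2 and Rps27, which were not. Rplp2 had log2 ratios of 0.61 in culture and 0.42 in animals at that step, within 2-fold. Its values at MII were thus above those in the secondary follicle by both routes, unlike the median member. Rps27 had at most 0.230 FPKM in the oocyte groups, so no direction is read for it. Whether such runs go with the direction at MII was not tested.

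Start regions were found for 66 of the 87 members. A C at an annotated start followed by 4 bases that are each C or T was present in 14 of them (21.2%), against 813 of 27025 genes with a start region (3.01%). The pattern was asked for at the annotated base alone. The runs of Rpl13a and Rpl22l1, which begin just after that base, therefore did not count, and the share depends on how starts are annotated. The motif CCGGAAG, searched on both strands of the whole start region and free to overlap the first pattern, was present in 26 of 66 members (39.4%) and in 2683 of 27025 genes (9.93%). Rps27l, Rpl15, Rplp2 and Rpl39l have it, and Rpl22, Rpl13a, Rps27 and Rpl22l1 have none in their start regions. A match is a description of the letters and not a site.

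Reaggregated PGCLCs and E12.5 PGCs held the family at nearly the same levels. Of 84 members, 1 was called higher in reaggregated PGCLCs, where 1.39% of all genes were, and 1 was called lower, where 0.786% were, and the median ratio on the log2 scale was 0.00 for members and for all genes. Rps18, a small-subunit head protein, was the one called higher, with 138 FPKM in reaggregated PGCLCs and 59.9 FPKM in E12.5 PGCs (log2 ratio 1.19). Rpl11, which with Rpl5 and the 5S ribosomal RNA binds the p53 regulator Mdm2, was the one called lower, with 9.49 FPKM in reaggregated PGCLCs and 20.2 FPKM in E12.5 PGCs (log2 ratio -1.02).

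All other ratios stayed within 2-fold. Of those with at least 10 FPKM in either group, Rpl14 was on the high side, with 528 FPKM in reaggregated PGCLCs and 388 FPKM in E12.5 PGCs (log2 ratio 0.45). On the low side were Rps3a1, with 68.0 FPKM in reaggregated PGCLCs and 125 FPKM in E12.5 PGCs (log2 ratio -0.87), and Rpl34, with 26.1 FPKM in reaggregated PGCLCs and 43.9 FPKM in E12.5 PGCs (log2 ratio -0.73). All 3 are structural proteins of their subunits.

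In secondary follicle oocytes no member was called in either direction between culture and animal, where 1.74% of all genes were called higher and 0.66% lower in culture. Over the members the median log2 ratio was -0.06, against 0.00 over all genes. At 10 FPKM or more in either group, Rps4l was at the low edge, with 92.7 FPKM in cultured and 136.9 FPKM in animal oocytes (log2 ratio -0.56). Also at the edges were Rps18, with 18.7 FPKM in cultured and 11.4 FPKM in animal oocytes (log2 ratio 0.67), Rpl14 at a log2 ratio of 0.24, Rpl34 at -0.55 and Rpl39l at -0.39. Most of these are structural proteins, and all differed by less than 2-fold.

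Between the MII groups the family stood higher in culture. Of 84 members, 24 (28.6%) were called higher in culture, where 12.4% of all genes were, and 0 were called lower, where 9.45% were. The median log2 ratio was 0.36, against 0.01 over all genes, with 0.63 for small-subunit and 0.26 for large-subunit members. Of the 27 members with at least 10 FPKM in either MII group, 11 were called higher. With columns scaled to equal sums, 27 members were called higher, where 16.7% of all genes were, and 0 lower, where 1.18% were, with a median of 0.57 for members and 0.23 for all genes. The share of all genes called lower thus depends on the scale of the columns, and the 0 lower members are read against both. The count of 24 was 39 or 8 with 0.1 or 5 added before the log in place of 1.

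Among members with at least 10 FPKM in either MII group, those with the highest ratios of culture over animal were Rpl39, Rplp1 and Rps9. Rpl39, a small protein of the exit tunnel, had 10.8 FPKM in cultured and 2.19 FPKM in animal MII oocytes (log2 ratio 1.88). Rplp1 had 225 FPKM in cultured and 60.4 FPKM in animal MII oocytes (log2 ratio 1.88). Rps9, a small-subunit protein, had 11.5 FPKM in cultured and 2.55 FPKM in animal MII oocytes (log2 ratio 1.82). The 3 genes belong to both subunits and to the stalk.

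At the other end, Rpl13a had 78.4 FPKM in cultured and 124.7 FPKM in animal MII oocytes (log2 ratio -0.66). Rps19bp1 had 18.9 FPKM in cultured and 25.4 FPKM in animal MII oocytes (log2 ratio -0.41), and Rpl37a had 16.2 FPKM in cultured and 21.6 FPKM in animal MII oocytes (log2 ratio -0.40). Rps27l, with 402 FPKM in cultured and 486 FPKM in animal MII oocytes, had a log2 ratio of -0.27. Of the other members called higher at MII than in the secondary follicle, Rpl22 had a log2 ratio of -0.31 between cultured and animal MII oocytes, Rpl15 one of -0.33 and Rps15a one of -0.66. With columns scaled to equal sums Rpl13a had a log2 ratio of -0.01 and Rps15a of -0.07, while Rps19bp1 and Rpl37a were at 0.22, Rpl15 at 0.30, Rpl22 at 0.34 and Rps27l at 0.39. The sign of the last 5 thus depends on that scale. These values use the same MII columns as the step to MII by which those members were named.

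Set side by side, the log2 ratio of the step from the secondary follicle to MII was higher in culture than in animals for 64 of 84 members (76.2%), where it was for 49.5% of all genes, and lower for 19 (22.6%), where it was for 48.7%. The difference was 1 or more for 25 members (29.8%), against 12.4% of all genes, and -1 or less for 0, against 10.7%, with a median of 0.44, against 0.00. It uses the same MII columns as the comparison of the MII groups above and is no separate result. The ratios of the 2 routes had a Spearman's rho of 0.916 over the 84 members and of 0.931 over all genes. Granulosa cell markers were at 1 FPKM or more for 8 of 13 genes in cultured and 7 of 13 in animal MII oocytes, with sums of 81.9 FPKM in cultured and 71.6 FPKM in animal MII oocytes, and gonadal stroma markers summed to 94.9 FPKM in cultured and 67.6 FPKM in animal MII oocytes. Of the 10 stroma genes, 3 reached 1 FPKM in cultured and 2 in animal MII oocytes. Gata4 made up most of the stroma sums, with 76.7 FPKM in cultured and 64.8 FPKM in animal MII oocytes. Vim had 14.9 FPKM in cultured and 2.24 FPKM in animal MII oocytes, and Acta2 had 1.89 FPKM in cultured and 0.0797 FPKM in animal MII oocytes. The other stroma genes were under 1 FPKM in both. The granulosa genes did not all differ one way. Cyp19a1, the highest of the list in both, had 27.1 FPKM in cultured and 42.2 FPKM in animal MII oocytes, Nr5a2 had 8.01 FPKM in cultured and 10.5 FPKM in animal MII oocytes, and Kitl had 4.53 FPKM in cultured and 7.96 FPKM in animal MII oocytes. Inha had 19.3 FPKM in cultured and 2.55 FPKM in animal MII oocytes, and Gja1 had 9.72 FPKM in cultured and 2.94 FPKM in animal MII oocytes. In the same order, Inhba had 5.89 and 2.25 FPKM, Fst 4.62 and 2.46 FPKM, and Hsd17b1 1.64 and 0.401 FPKM. Of the granulosa genes at 1 FPKM or more in either, all but Cyp19a1, Nr5a2 and Kitl were thus higher in culture. The defining genes Amh, Foxl2 and Fshr were under 1 FPKM in both. The part of the granulosa and stroma markers in the MII result was not tested.

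Rps18 was at least 1.5-fold higher in culture than in animals at all 3 stages compared, a selection made after the values were seen. Of 84 members, 2 (2.38%) met this condition, and of all genes tested 38 (0.267%) did. Rps18 had 159 FPKM in ES cells, 214 FPKM in day 6 PGCLCs, 138 FPKM in reaggregated PGCLCs, 18.7 FPKM in cultured secondary follicle oocytes and 1.26 FPKM in cultured MII oocytes. In animals it had 59.9 FPKM in E12.5 PGCs, 11.4 FPKM in secondary follicle oocytes and 0.366 FPKM in MII oocytes. Most of its coding sequence, 87.7% of the 50-base words, also occurs in transcripts of other genes. The culture groups share a strain that the animal groups lack, and strain and culture cannot be told apart.

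Few members were called between the 3 stages before the growing oocyte in culture. In day 6 PGCLCs, 1 of 84 members was called higher than in ES cells, where 9.63% of all genes were, and 7 (8.33%) were called lower, where 12.0% were, so that both shares lay below those of all genes. Their median log2 ratio was -0.10, against 0.00. Rpl39l was the one called higher, with 83.5 FPKM in day 6 PGCLCs and 21.1 FPKM in ES cells (log2 ratio 1.93). The next was Rpl34, with 53.3 FPKM in day 6 PGCLCs and 33.1 FPKM in ES cells (log2 ratio 0.67).

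Among members with at least 10 FPKM in either group, those lowest in day 6 PGCLCs relative to ES cells included Rpl30, with 6.30 FPKM in day 6 PGCLCs and 20.9 FPKM in ES cells (log2 ratio -1.58), and Rpl27a, with 18.8 FPKM in day 6 PGCLCs and 39.8 FPKM in ES cells (log2 ratio -1.04). X-linked Rpl39 was among them, with 119.6 FPKM in day 6 PGCLCs and 251 FPKM in ES cells (log2 ratio -1.06). Of the other X-linked members, Rpl36a was called lower with 0.238 FPKM in day 6 PGCLCs and 1.70 FPKM in ES cells (log2 ratio -1.12), and Rpl10 (log2 ratio -0.76) and Rps4x (log2 ratio -0.37) were not called. The remaining members called lower were Rps12, with 2.99 FPKM in day 6 PGCLCs and 7.77 FPKM in ES cells (log2 ratio -1.14), and the paralogs Rpl3l and Rpl7l1. The count of 7 was 4 with columns scaled to equal sums and 2 with 5 added before the log.

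In reaggregated PGCLCs, 0 of 84 members were called higher than in day 6 PGCLCs, where 5.15% of all genes were, and 2 (2.38%) were called lower, where 5.04% were. The median log2 ratio was -0.21, against -0.02 over all genes, and it was 0.01 with columns scaled to equal sums, so no direction is given for the family here. Rpl34 had 26.1 FPKM in reaggregated and 53.3 FPKM in day 6 PGCLCs (log2 ratio -1.0), and Rpl10 had 0.597 FPKM in reaggregated and 2.48 FPKM in day 6 PGCLCs. Among members with at least 10 FPKM in either group, the widest ratios within 2-fold were those of Rps18 (-0.63) and Rps4l (-0.59) on the low side, and of Rpl15 (0.75), Rpl27a (0.52) and Rpl39 (0.37) on the high side.

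Paralogs did not keep a fixed ratio to their parent genes. Rpl39l, known in the mouse for its role in male germ cells, made up 7.75% of the Rpl39l and Rpl39 FPKM in ES cells, 41.1% in day 6 PGCLCs, 31.0% in reaggregated PGCLCs, 64.3% in cultured secondary follicle oocytes and 44.5% in cultured MII oocytes. In animals it made up 44.3% in E12.5 PGCs, 66.0% in secondary follicle oocytes and 74.2% in MII oocytes. The paralog thus exceeded Rpl39 in the growing oocytes of both routes, and at MII in animals only, which was not tested.

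Rpl22l1, which Rpl22 is known to repress in the mouse, went the other way. It made up 43.7% of the Rpl22l1 and Rpl22 FPKM in ES cells, 38.6% in day 6 PGCLCs, 52.1% in reaggregated PGCLCs, 25.2% in cultured secondary follicle oocytes and 1.55% in cultured MII oocytes. In animals it made up 47.6% in E12.5 PGCs, 29.0% in secondary follicle oocytes and 0.504% in MII oocytes. It had 1.12 FPKM in cultured MII and 9.66 FPKM in cultured secondary follicle oocytes, and 0.447 FPKM in animal MII and 12.0 FPKM in animal secondary follicle oocytes. The pair therefore diverged at MII, where Rpl22 was higher and Rpl22l1 lower than in the secondary follicle.

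Rps4l, a processed copy of X-linked Rps4x that GENCODE lists as a transcribed pseudogene, made up 56.4% of the Rps4l and Rps4x FPKM in ES cells, 66.1% in day 6 PGCLCs, 60.2% in reaggregated PGCLCs, 74.6% in cultured secondary follicle oocytes and 80.4% in cultured MII oocytes. In animals it made up 62.0% in E12.5 PGCs, 78.6% in secondary follicle oocytes and 97.1% in MII oocytes. Rps4x itself had 3.42 FPKM in cultured MII oocytes and 31.6 FPKM in cultured secondary follicle oocytes, and 0.544 FPKM in animal MII oocytes and 37.4 FPKM in animal secondary follicle oocytes. How the authors divided reads between a gene and such a copy is not stated in the labels or notes used here.

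Rps27l made up 98.6% or more of the Rps27l and Rps27 FPKM in all 8 groups, and Rpl10l made up 90.0% or more of the Rpl10l and Rpl10 FPKM. Rpl36al, a retrogene copy of X-linked Rpl36a, made up 94.8% or more of its pair in the 7 groups where either had a value above 0. Rpl7l1, a protein related to Rpl7, ranged from 10.4% of its pair in reaggregated PGCLCs to 46.1% in animal MII oocytes. The 46.1% rests on values under 1 FPKM, 0.336 FPKM for Rpl7l1 and 0.393 FPKM for Rpl7. Rpl3l, the striated muscle form of Rpl3, reached 1.38 FPKM in ES cells and was listed at 0 or under 0.5 FPKM elsewhere. In the pairs with the highest shares the parent gene had a low value in every group, at most 5.97 FPKM for Rps27, 4.88 FPKM for Rpl10 and 1.70 FPKM for Rpl36a. Rps27, Rpl10 and Rpl36a share all of their coding sequence with transcripts of other genes, by the count given below. Whether their low values are those of the mRNA was not tested, and the paralog is not read as the main form.

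**Figure D3:**
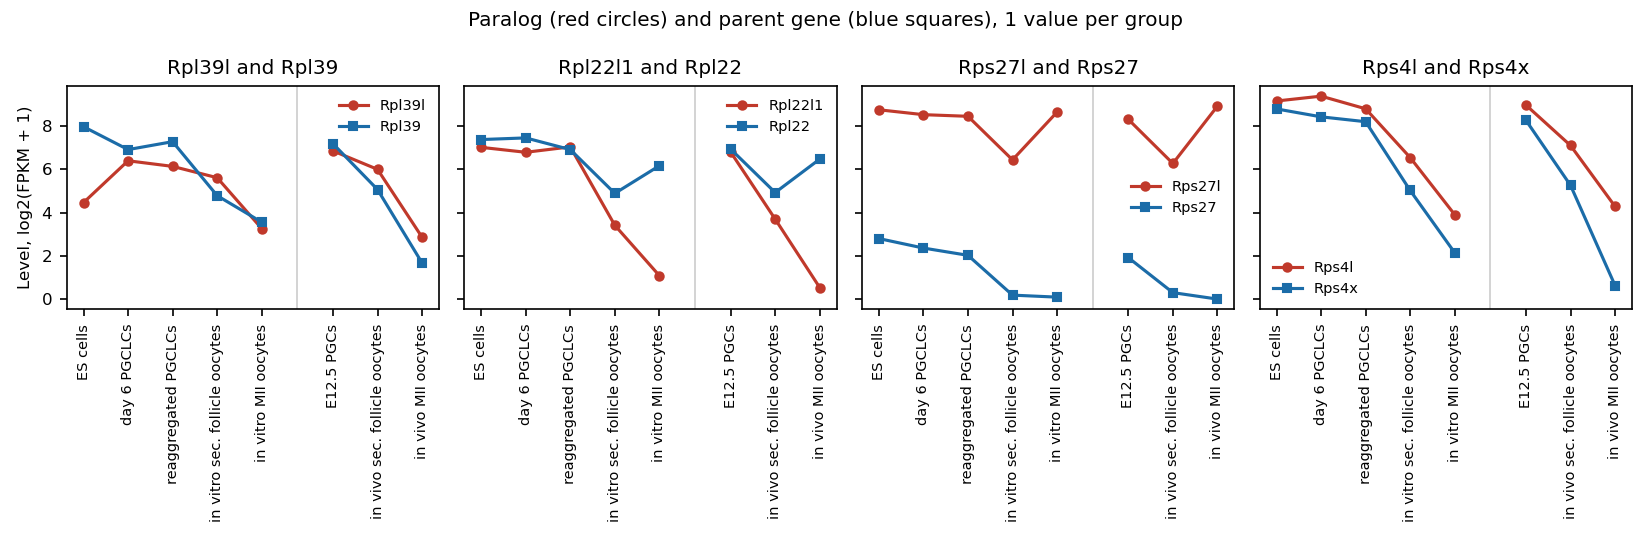
Levels of 4 paralogs (red circles) and their parent genes (blue squares) as log2(FPKM + 1), 1 deposited value per group, with culture groups to the left of the grey line and animal groups to the right. Rpl39l lies above Rpl39 in the secondary follicle oocytes of both routes, Rpl22l1 and Rpl22 part at MII, Rps27l is far above Rps27 in all groups, and Rps4l exceeds Rps4x in all groups.

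Several ribosomal proteins that every ribosome needs had very low values in every group. Rps29, of the small subunit, had at most 0.116 FPKM, in ES cells. Rpl26, of the large subunit, reached 0.000291 FPKM, in animal MII oocytes, and was listed at 0 in the 6 groups before MII. Rpl23a and Rpl24, named after their values were seen, had at most 2.42 FPKM and 1.32 FPKM. Genes that every cell uses were thus listed at or near 0, and a member listed at 0 is not read here as absent, at MII included.

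Copies of the family in the genome were counted beside these levels. For each member, the coding sequence was divided into all its 50-base words, and the share of words also found in a transcript of another gene was counted in GENCODE release M21 on GRCm38. The median share was 89.5% over 86 members, against 0.0% over 77 mitochondrial ribosomal protein genes. Of the 86 members, 69 shared at least 50% of their coding words and 30 shared all, whereas 4 of the 77 mitochondrial genes shared at least 50% and 1 shared all. A member shared words with up to 119 pseudogenes, and the median member with 8.

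Members with more shared coding sequence had lower deposited levels. The mean level over the 8 groups had a Spearman's rho of -0.73 with the share over 86 members, and between -0.76 and -0.64 within single groups. This is a description across genes of 1 table, and rho with coding length was 0.08. The part of copies in the levels was not tested. The 17 members that share under 50% had a median FPKM of 331 over the group means, and the 69 that share 50% or more had 14.1. In ES cells the medians were 581 FPKM for the members that share less and 25.4 FPKM for those that share more, and in animal MII oocytes 7.99 FPKM and 0.299 FPKM.

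Ratios between groups were set against the shared sequence by splitting the members at 50%, with no test. For cultured secondary follicle oocytes against reaggregated PGCLCs, the median log2 ratio was -2.59 for the members that share under 50%, of which 14 of 17 were called lower, and -2.30 for those that share 50% or more, of which 58 of 66 were. For the same step in animals the medians were -2.32 for the members that share under 50% and -2.22 for the others. At the step to MII the medians lay further apart, at -2.15 for the members that share under 50% and -1.01 for the others in culture, and at -3.08 and -1.48 in the same order in animals. For cultured against animal MII oocytes they were 0.79 for the members that share under 50% and 0.33 for the others. Members that share under 50%, Rpl8 (8.73%) among them, thus had medians of the same sign as the others in these 5 comparisons.

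**Figure D4:**
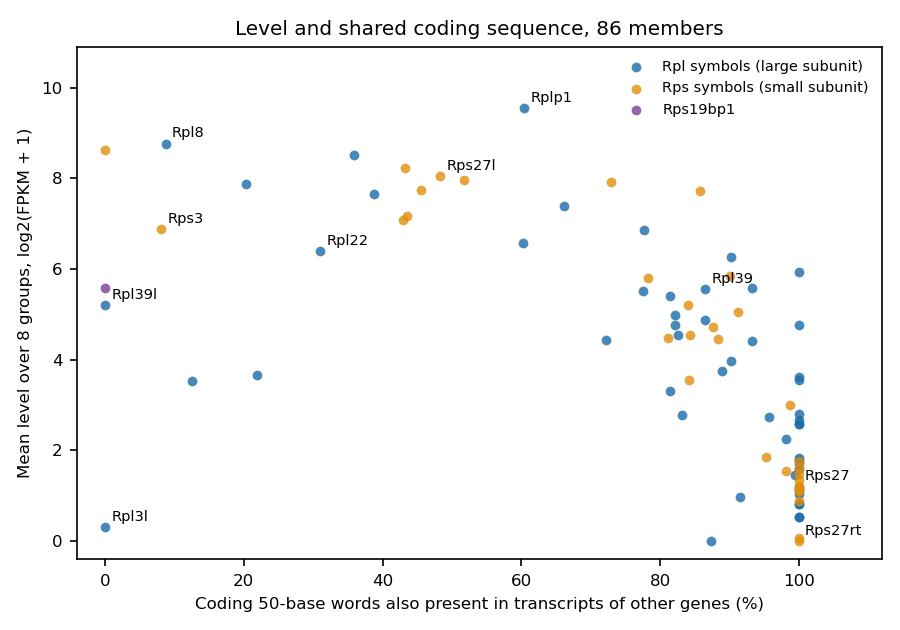
Mean level over the 8 groups, as log2(FPKM + 1), against the percent of a member's 50-base coding words that also occur in transcripts of other genes, 1 point per member for the 86 members with a coding sequence. Members at 100% shared lie mostly below a level of 4, while Rpl8, at 8.73%, lies above 8.

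Rps27 and Rpl39 and their copies are shown because they differ in how far they can be told apart. Each line gives the first 60 coding bases in GENCODE M21 (GRCm38), with bases that differ from the parent gene in capitals.
Rps27 (gene at chr3:90212522-90213651, minus strand): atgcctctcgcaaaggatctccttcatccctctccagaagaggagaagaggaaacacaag
Rps27rt (gene at chr9:114982366-114982739, minus strand): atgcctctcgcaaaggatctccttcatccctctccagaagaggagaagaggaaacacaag
Rps27l (gene at chr9:66946086-66949516, plus strand): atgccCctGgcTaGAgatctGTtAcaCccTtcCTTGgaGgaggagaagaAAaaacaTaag
Rpl39 (gene at chrX:37082520-37085402, minus strand): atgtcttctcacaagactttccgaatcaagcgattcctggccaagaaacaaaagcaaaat
Rpl39l (gene at chr16:10170226-10174911, plus strand): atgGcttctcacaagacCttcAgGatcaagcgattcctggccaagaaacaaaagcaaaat
Over the 252 coding bases, Rps27rt differs from Rps27 at 0 positions, and both share all of their coding words with other genes. Rps27 had 5.97 FPKM in ES cells and at most 0.230 FPKM in the oocyte groups, and Rps27rt was listed at 0 throughout. Rps27l differs from Rps27 at 60 of 252 positions (76.2% identity) and shares 48.3% of its coding words. Rpl39l differs from Rpl39 at 23 of 153 positions (85.0% identity) and shares 0.0% of its words, where Rpl39 shares 86.5%. More words of Rps27l and Rpl39l than of their parents are thus found in no other gene. The same holds for Rpl10l, which shares 12.48% of its words, and Rpl36al, which shares 81.41%, where Rpl10 and Rpl36a share all. The paralog shares given above are uncertain to that extent.

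Other genes of protein synthesis were compared with the family over the same steps. Mitochondrial ribosomal protein genes, which encode the ribosomes inside mitochondria, had a median log2 ratio of -0.31 for cultured secondary follicle oocytes against reaggregated PGCLCs, with 9 of 76 (11.8%) called higher and 20 (26.3%) lower, where 25.2% of all genes were called higher and 26.4% lower. The share called lower was thus that of all genes. For the same step in animals their median was -0.54, with 2 (2.63%) called higher and 26 (34.2%) lower, where 24.3% of all genes were called higher and 25.9% lower. The summed FPKM of cytosolic members was 1.18 times the mitochondrial sum in cultured secondary follicle oocytes, against 6.70 times in reaggregated PGCLCs, and 1.38 times in animal secondary follicle oocytes, against 5.83 times in E12.5 PGCs. At this step the cytosolic family was thus lowered more than the mitochondrial list by its median.

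At MII the mitochondrial list came down as well. Its median log2 ratio against the secondary follicle was -1.71 in culture, with 4 called higher and 51 (67.1%) lower, where 28.6% of all genes were lower, and -2.25 in animals, with 9 called higher and 52 (68.4%) lower, where 33.1% of all genes were. Those called higher were 5.26% of the list in culture and 11.8% in animals, against 23.9% and 28.0% of all genes. Mrpl12, which also binds the mitochondrial RNA polymerase, had 2.39 FPKM in cultured MII oocytes and 83.7 FPKM in cultured secondary follicle oocytes, and 0.397 FPKM in animal MII oocytes and 70.4 FPKM in animal secondary follicle oocytes. Between cultured and animal MII oocytes its list had 18 (23.7%) called higher and 4 (5.26%) lower, where 12.4% of all genes were higher and 9.45% lower, with a median of 0.33.

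Of 38 translation factor genes, 21 (55.3%) were called lower and 1 higher in cultured secondary follicle oocytes than in reaggregated PGCLCs, with a median log2 ratio of -1.11, and in animals 18 (47.4%) were called lower and 1 higher than in E12.5 PGCs, with a median of -0.94. Of all genes, 26.4% were called lower and 25.2% higher at this step in culture, and 25.9% lower and 24.3% higher in animals. Eef1g, a subunit of the elongation factor that loads tRNA, had 3.59 FPKM in the cultured oocytes and 68.2 FPKM in reaggregated PGCLCs. Pabpc1, the poly(A)-binding protein, had 24.9 FPKM in the cultured oocytes and 286 FPKM in reaggregated PGCLCs. At MII against the secondary follicle, 19 of 38 were called lower and 8 (21.1%) higher in culture, and 21 (55.3%) lower and 10 (26.3%) higher in animals, with Eif3g, an initiation factor subunit, at 12.7 FPKM in cultured MII and 208 FPKM in cultured secondary follicle oocytes. Of all genes, 28.6% were called lower and 23.9% higher at MII in culture, and 33.1% lower and 28.0% higher in animals. The shares of translation factors called higher were thus near those of all genes.

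Of 59 genes of ribosome biogenesis and RNA polymerase I, 23 (39.0%) were called lower and 4 higher in cultured secondary follicle oocytes than in reaggregated PGCLCs, with a median log2 ratio of -0.80. In animals 25 (42.4%) were called lower and 4 higher than in E12.5 PGCs, with a median of -0.77. Among all genes, 26.4% were lower and 25.2% higher in culture, and 25.9% lower and 24.3% higher in animals. Fbl, the methyltransferase that modifies ribosomal RNA, had 1.86 FPKM in the cultured oocytes and 20.1 FPKM in reaggregated PGCLCs. Against the list's median, Taf1a, a subunit of the selectivity factor of RNA polymerase I, had 105 FPKM in the cultured oocytes and 5.76 FPKM in reaggregated PGCLCs, and Riok1, a kinase that matures the small subunit, had 71.1 FPKM in the cultured oocytes and 7.03 FPKM in reaggregated PGCLCs.

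Between cultured and animal MII oocytes, 13 translation factors (34.2%) were called higher and 1 (2.63%) lower, with a median log2 ratio of 0.45. For biogenesis genes the shares were near those of all genes (12.4% higher and 9.45% lower), with 8 (13.6%) called higher and 6 (10.2%) lower and a median of 0.18. In the 2 comparisons of culture with animal before MII, 0 genes of the mitochondrial, translation factor and biogenesis lists were called in either direction. In these comparisons all 4 lists had medians between -0.11 and 0.12.

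**Figure D5:**
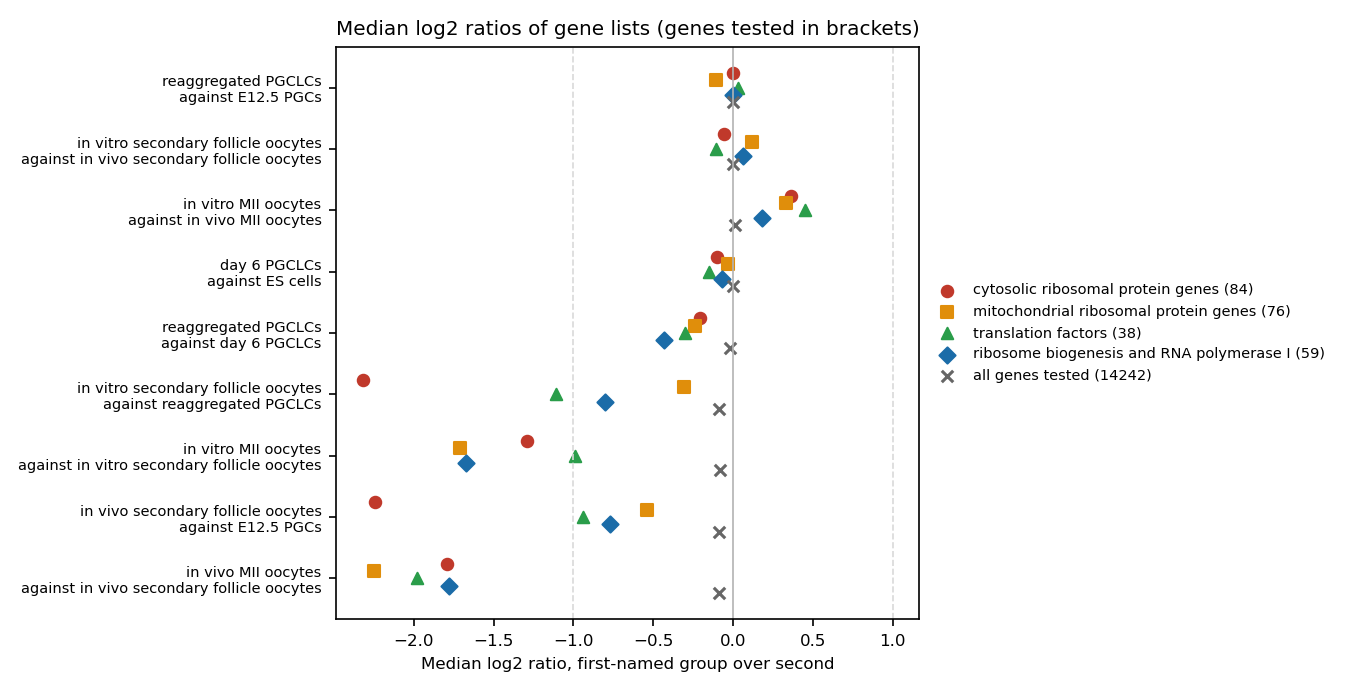
Median log2 ratio of log2(FPKM + 1) in each of the 9 comparisons (first-named group over second) for cytosolic ribosomal protein genes (84 tested), mitochondrial ribosomal protein genes (76), translation factors (38), ribosome biogenesis and RNA polymerase I genes (59) and all genes tested (14242). Into the secondary follicle the cytosolic family lies lowest (-2.32 in culture and -2.24 in animals), while at MII the mitochondrial list lies lowest (-1.71 and -2.25).

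Ribosomal proteins encoded under other symbols were looked at beside the family. Gnb2l1, the older symbol of the small-subunit protein Rack1, had 1460 FPKM in ES cells, 1750 FPKM in day 6 PGCLCs, 1350 FPKM in reaggregated PGCLCs, 88.7 FPKM in cultured secondary follicle oocytes and 146 FPKM in cultured MII oocytes. In animals it had 1240 FPKM in E12.5 PGCs, 84.6 FPKM in secondary follicle oocytes and 246 FPKM in MII oocytes, which was called higher than in the secondary follicle (log2 ratio 1.53). Fau, which encodes Rps30 as a fusion, had 3.49 FPKM in cultured and 6.76 FPKM in animal secondary follicle oocytes, against 11.2 FPKM in reaggregated PGCLCs and 11.8 FPKM in E12.5 PGCs.

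The genes whose pattern over the 8 groups was most like that of the median member were Mrpl13, a mitochondrial ribosomal protein, Lig1, the DNA ligase of replication, and Arl6ip4. They were taken from 9410 genes with at least 10 FPKM in a group by Spearman's rho over 8 groups, which was 1.00 for 9 genes, and among these by Pearson's r, which was 0.997, 0.995 and 0.992. Mrpl13 had 89.4 FPKM in ES cells, 79.8 FPKM in day 6 PGCLCs, 65.7 FPKM in reaggregated PGCLCs, 24.4 FPKM in cultured secondary follicle oocytes and 9.49 FPKM in cultured MII oocytes. In animals it had 90.2 FPKM in E12.5 PGCs, 27.6 FPKM in secondary follicle oocytes and 6.69 FPKM in MII oocytes.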

How the data were processed

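Per the labels, directional libraries were made from poly(A) RNA and sequenced on a HiSeq2000. TopHat2, Bowtie2 2.0.13, Cufflinks and Cuffdiff 2.2.1 and the build mm10 are named in the submitters' processing notes, with no word on reads that match several places. The authors deposited FPKM values, 1 per gene symbol and group, so groups with 3 or 2 samples enter as 1 column each, with no test. From these, log2(FPKM + 1), ratios of groups, shares and counts past 2-fold were computed with Python 3.11.15, NumPy 2.4.6, pandas 2.3.3, SciPy 1.17.1 and matplotlib 3.10.9, in steps tested on simulated data.

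The members and the gene lists were chosen with earlier results of these data known. Of 62 biogenesis symbols asked for, 59 were found. Named were, per comparison, the 3 highest and 3 lowest members by log2 ratio with at least 10 FPKM in the higher group, the 3 highest and 3 lowest by mean level, all paralogs with parents, X-linked members, up to 3 called genes per related list, and the 3 genes of most similar pattern. Some members that this rule takes are not reported here. Ties in rho were broken by Pearson's r, a choice made after the values were seen. Shared words were counted in GENCODE M21 transcripts for 86 of 87 members, and start regions come from RefSeq on GRCm38.p6. Alternatives were an added 0.1 or 5, a filter of 5 FPKM or none, equal column sums, centring, quantile normalization and leaving out paralogs and the binding protein gene.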

Additional observations from a re-analysis of the deposited data

How the results depend on the processing

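The counts of members past 2-fold (18 counts, 2 for each of 9 comparisons) were recomputed under 8 alternatives, and 115 of the 144 values lay within 1.5 times the value reported. Into the secondary follicle and to MII, the counts of lower members did so under all 8. The other counts, with the reported count last, were as follows. For reaggregated PGCLCs against E12.5 PGCs, lower members numbered 3 with 0.1 added and 0 with 5 added (1 reported). For secondary follicle oocytes of culture against animals, 1 higher and 1 lower with 0.1 added (0 and 0). For cultured against animal MII oocytes, 39 higher with 0.1 and 8 with 5 added (24), and lower 3 with 0.1 added, 1 when centred and 2 after quantile normalization (0). For day 6 PGCLCs against ES cells, lower 2 with 5 added and 4 with equal sums or quantile normalization (7), and higher 0 without paralogs (1). For reaggregated against day 6 PGCLCs, higher 2 with 0.1 added and 1 with equal sums or quantile normalization (0), and lower 0 with 5 added and 1 with the filter of 5 FPKM, equal sums, centring or quantile normalization (2). For secondary follicle oocytes against precursors, higher 0 without the binding protein gene in culture and in animals (1 each), and 2 in animals with 0.1 added. For MII against secondary follicle oocytes, higher in culture 5 with 0.1 added and 1 with equal sums (3), and in animals 3 with 5 added, 1 with equal sums and 2 after quantile normalization (5). Of 507 values for medians, named members and shares, 197 were counted as unchanged, 309 as moved and 1, reported past 2-fold, as reversed. Among the 507 values, 4 changed sign, all with equal sums. They were Rpl13a for animal MII against secondary follicle oocytes, at -0.01 (1.45 reported), the median of members for reaggregated against day 6 PGCLCs, at 0.01 (-0.21 reported), and Rps19bp1 and Rpl37a for cultured against animal MII oocytes, both at 0.22 (-0.41 and -0.40 reported). Rpl15, Rpl22 and Rps27l, not named by rank for that last comparison, also changed sign in it, as given above.

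No paired analysis was possible because the table holds 1 value per group, and for the same reason no sample could be left out in turn. Word lengths of 36 and 75 bases, and whole transcripts in place of coding sequence, were chosen after the data were seen and gave a Spearman's rho with level of -0.71, -0.71 and -0.49, against -0.73. Equal sums moved the median of all genes to 0.23 for cultured against animal MII oocytes, -0.38 and -0.34 for the step into the secondary follicle in culture and in animals, and 0.11 for reaggregated against day 6 PGCLCs. Depth is unknown, so values under 1 FPKM and values listed at 0 cannot be given a limit.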
